A study of Mus musculus with 9 samples.

Results

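The proteasome genes described here are the 49 genes of the count table whose symbol begins with Psma, Psmb, Psmc, Psmd, Psme, Psmf or Psmg followed by a number, out of 23337 genes in the table. Names of pseudogenes were left out. The 3 inducible catalytic subunits of the immunoproteasome (Psmb8, Psmb9 and Psmb10) are given apart from the other 45 proteasome genes, and 1 further match, Psmc3ip, is named for binding an ATPase subunit but encodes a cofactor of meiotic recombination and no subunit. The samples were whole livers of C57BL/6 mice that were 6 to 8 weeks old when a high-fat diet (HFD) began and that ate it for 16 weeks. The 3 groups of 3 mice were PAR2dHep mice (dHep), which lack protease-activated receptor 2 (PAR2, gene F2rl1) in hepatocytes, mice labelled as whole-body PAR2 knockouts (labelled KO), and PAR2fl/fl mice (WT), the floxed controls. All 3 groups ate the HFD and no group on another diet was analysed, so every comparison is between genotypes on that diet. The Cre driver of the dHep mice and the allele of the mice labelled KO are not given in the sources used here.

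The 26S proteasome degrades proteins that carry ubiquitin chains. Its 20S core is a barrel of stacked alpha and beta rings with the protease sites inside the beta rings, and its 19S particle, made of a base with a ring of ATPases and a lid, binds, unfolds and feeds in the substrate. The transcription factor NRF1 (Nfe2l1), which is made in the endoplasmic reticulum and released when proteasome activity is short, raises the transcription of most subunit genes together, and interferon gamma raises the immunoproteasome genes, whose products take the place of the constitutive catalytic subunits and are abundant in immune cells.

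Each library held 18683660 to 30509242 reads assigned to genes, and values are CPM (read counts scaled to a common library size) after scaling by TMM (a factor that corrects for composition, 0.883 to 1.10 here). Whether libraries of 2 groups overlapped in CPM is stated on this scale, and some of these statements do not hold with library totals. With those totals, dHep no longer lay wholly above WT for Psma7, Psmb1, Psmb3, Psmd3 and Psme2, nor labelled KO for Psmb10 and Psme3. For Psmd1 and Psmd9, dHep then overlapped with labelled KO. F2rl1 had 2, 8 and 0 reads in the dHep libraries, 71, 103 and 76 reads in the libraries labelled KO and 17, 27 and 28 reads in the WT libraries. The receptor gene therefore goes against the KO label, and what the table's reads of this gene cover of a deleted allele is not given in the sources used here, so those libraries are called by their label throughout. Summed over 12 acinar markers of the pancreas, dHep replicate 2 had 1662 CPM and WT replicate 1 had 412 CPM against 12.5 to 84.7 CPM elsewhere, with Prss1 itself listed at 0 everywhere. Over 10 markers of skeletal muscle, dHep replicate 2 had 724 CPM, labelled KO replicate 3 had 62.8 CPM, labelled KO replicate 2 had 40.6 CPM and dHep replicate 1 had 24.0 CPM, against 0.778 to 6.10 CPM in the other 5 libraries. The part of these transcripts in the results was not tested. In whole liver, fewer cells of a type and less RNA per cell cannot be told apart. Hepatocyte markers summed to 110869 to 162540.1 CPM in dHep, 109017 to 123002 CPM in the libraries labelled KO and 98659 to 105286 CPM in WT.

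More proteasome genes rose than fell against WT in the libraries labelled KO and, by a smaller count, in dHep livers. Of the 48 genes with enough reads to test, 21 rose and 0 fell in the libraries labelled KO against WT, at an adjusted p under 0.05 by edgeR's quasi-likelihood test with Benjamini-Hochberg adjustment over 13141 genes. In that comparison 20.9% of all genes tested rose and 22.1% fell, 43.0% in all. In dHep against WT, 13 of the 48 rose and 1 fell, against 12.4% of all genes that rose and 11.9% that fell, 24.3% in all. In the libraries labelled KO against dHep, 4 rose and 0 fell, against 4.23% and 5.39% of all genes, 9.62% in all. At an unadjusted p under 0.05 in edgeR there were 25 members for labelled KO against WT and 18 for labelled KO against dHep. These numbers count both directions and include the genes called as risen. DESeq2 counted 22 that rose and 0 that fell in the first of these comparisons and 9 and 1 in the second. For limma voom the counts were 29 and 3 in the first and 2 and 0 in the second.

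Without the immunoproteasome genes and Psmc3ip, the median log2 fold change over 44 tested proteasome genes was 0.10 in dHep against WT, 0.31 in the libraries labelled KO against WT and 0.14 for labelled KO against dHep. The median over all genes tested was 0.02, -0.01 and -0.02 in the same order. Of the 44 genes, 30, 36 and 34 had a value above 0 in these comparisons. The comparisons with WT share the WT libraries, and the comparison of labelled KO with dHep shares a group with each. With library totals in place of TMM, a scaling chosen after seeing the data, the median of all genes moved to -0.14, -0.20 and -0.04, and the proteasome median became -0.07, 0.12 and 0.12, so that it turned negative in dHep, with 16 of 44 genes above 0. Relative to the median of all genes it stood 0.08, 0.32 and 0.16 higher, against 0.09, 0.32 and 0.16 with TMM. On that scale 2 members rose and 3 fell in dHep, 6 rose and 4 fell in the libraries labelled KO against WT, and 1 rose and 0 fell in the libraries labelled KO against dHep (15 at an unadjusted p under 0.05 in edgeR). As a share of all assigned reads, the 45 genes made up 0.409, 0.322 and 0.351% in the dHep libraries, 0.379, 0.412 and 0.381% in the libraries labelled KO and 0.377, 0.375 and 0.394% in the WT libraries.

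**Figure D1:**
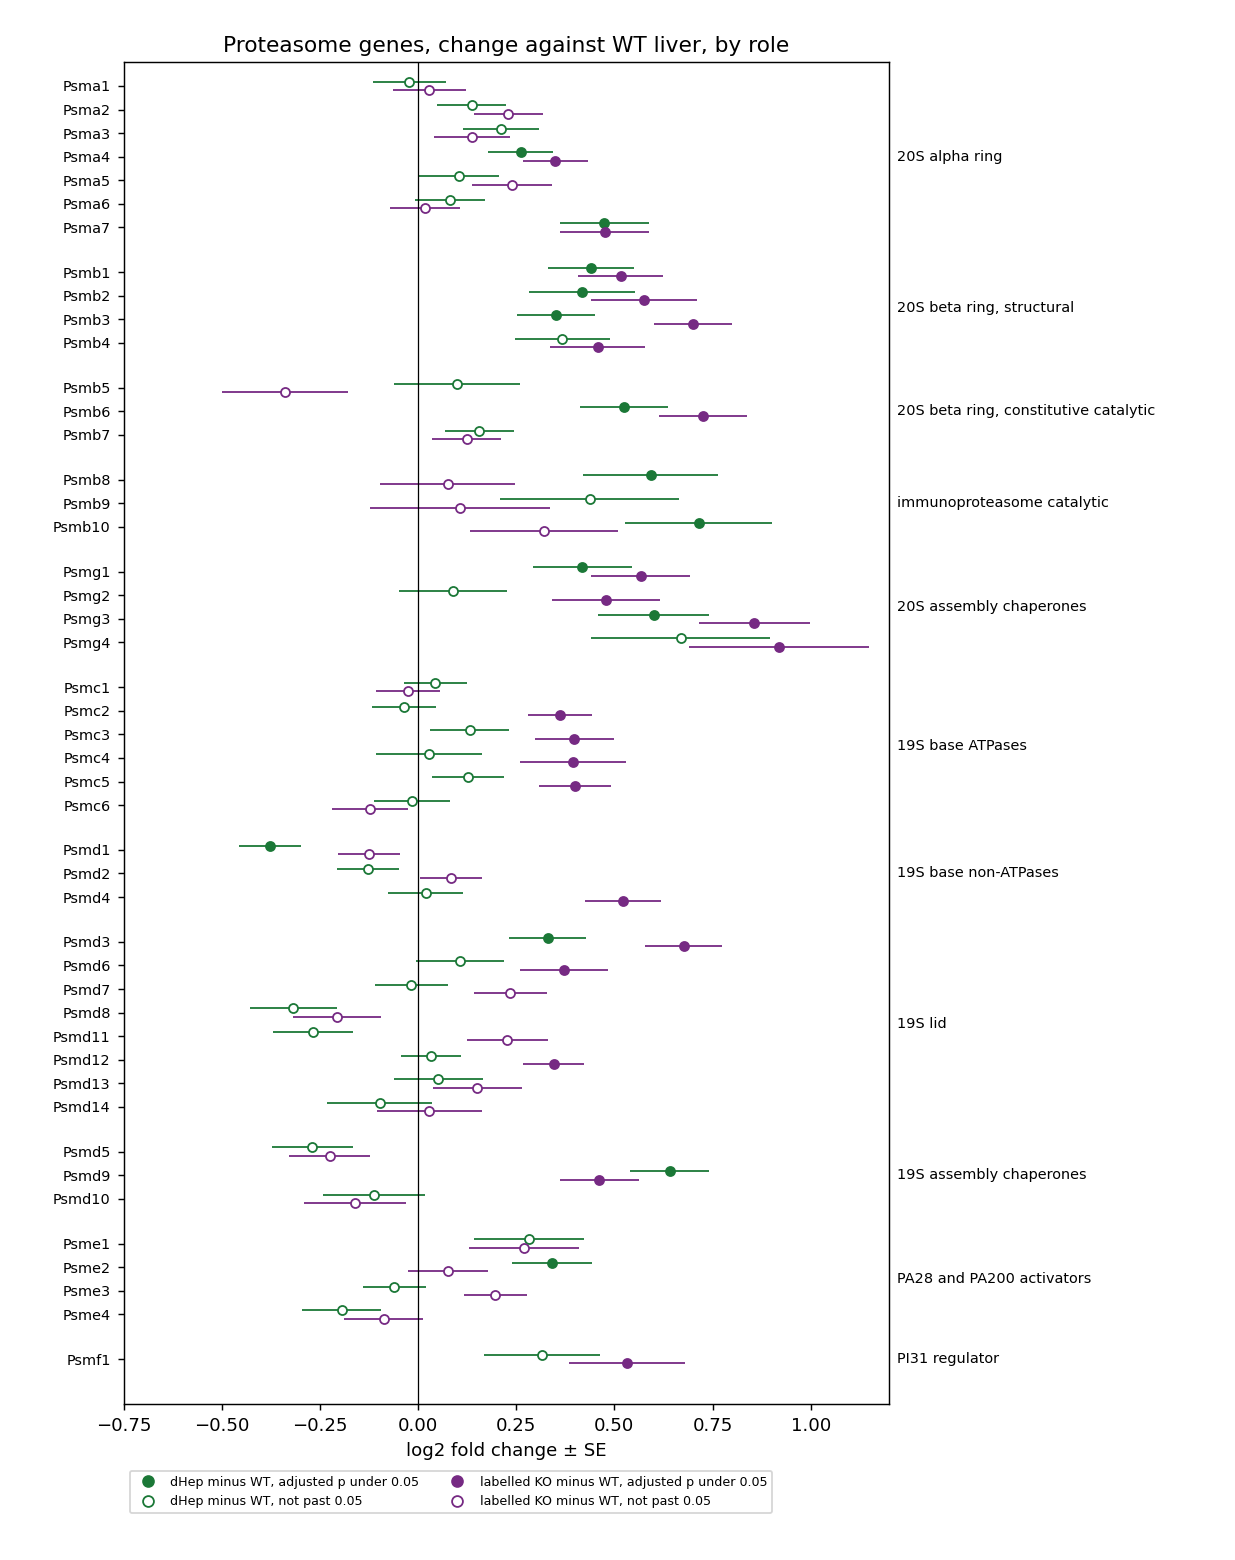
Log2 fold change against WT (horizontal axis, with its SE) of 46 proteasome genes grouped by role, in dHep (green) and in the libraries labelled KO (purple). Filled points passed an adjusted p of 0.05. Psmb6 stands at 0.52 in dHep livers and 0.73 in the libraries labelled KO, and Psmd1 in dHep is the filled point left of 0, at -0.38.

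The values for dHep rested on individual libraries. Without dHep replicate 3 the proteasome median in dHep was 0.03, the same as that of all genes to 2 decimals, and 25 of 44 genes were above 0. Without dHep replicate 2 it was 0.18 against -0.01 for all genes, and 34 of 44 were above 0. For labelled KO against dHep, the proteasome median was 0.07 without dHep replicate 2 and 0.23 without dHep replicate 3, against 0.14 with all libraries. For dHep against WT, 14 members were called with all 9 libraries, 9 without dHep replicate 3 and 7 without labelled KO replicate 3. The count of calls was 4 without WT replicate 1, 3 without WT replicate 2 and 3 without WT replicate 3. Without both dHep replicate 2 and WT replicate 1 it was 8. The genes called in all 19 other settings in dHep were Psmb6 and Psmd9. For the libraries labelled KO against WT, the count was 16 to 25 with 1 library left out, and 6 genes (Psmb1, Psmb3, Psmb6, Psmd3, Psmd4 and Psmg3) were called in all 19. The 7 that lost the call without a library were Psmb4, Psmc3, Psmc4, Psmd6, Psmf1, Psmg2 and Psmg4, at adjusted p of 0.0507 to 0.130 without labelled KO replicate 2 or 3 or any 1 of the WT libraries. The 4 called in the libraries labelled KO against dHep were called in no fit without labelled KO replicate 2 or without labelled KO replicate 3 (13 and 12 members at an unadjusted p under 0.05 in edgeR), and 15 were called without dHep replicate 3.

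On the scale of CPM per kilobase of counted gene length (RPKM), which allows a comparison between genes, the 14 constitutive 20S genes had a median of 112 in dHep, 117 in the libraries labelled KO and 86.3 in WT. Psmb7, the trypsin-like subunit, was the highest, with 164 ± 12.1 in dHep, 160.4 ± 8.39 in the libraries labelled KO and 147 ± 0.24 in WT (SD, n = 3). Psmb5, the chymotrypsin-like subunit and the target of the drug bortezomib, was the lowest, with 49.4 ± 12.3 in dHep, 36.4 ± 3.13 in the libraries labelled KO and 46.1 ± 1.59 in WT. Of its 871 counted bases, 109 are shared with Mir686 on the same strand, and featureCounts by default leaves reads over both unassigned, so its level is uncertain. The 17 genes of the 19S particle had a median of 53.1 in dHep, 63.4 in the libraries labelled KO and 54.4 in WT, with Psmd3 the lowest at 32.8 ± 3.38 in dHep, 41.7 ± 2.42 in the libraries labelled KO and 26.1 ± 1.21 in WT. Immunoproteasome genes lay below all of these 20S genes in group means, between 14.1 RPKM (Psmb10 in WT) and 31.3 RPKM (Psmb8 in dHep). In WT, the levels of Psmb3, Psmb4, Psmb6 and Psma7, between 82.9 and 84.7 RPKM, did not differ beyond their spread of 0.20 to 4.02 RPKM. RefSeq lists 6 pseudogenes named for 4 members (Psma5, Psmb5, Psmb6 and Psmb7), and reads that match both copies may have been split or dropped in the counting.

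**Figure D2:**
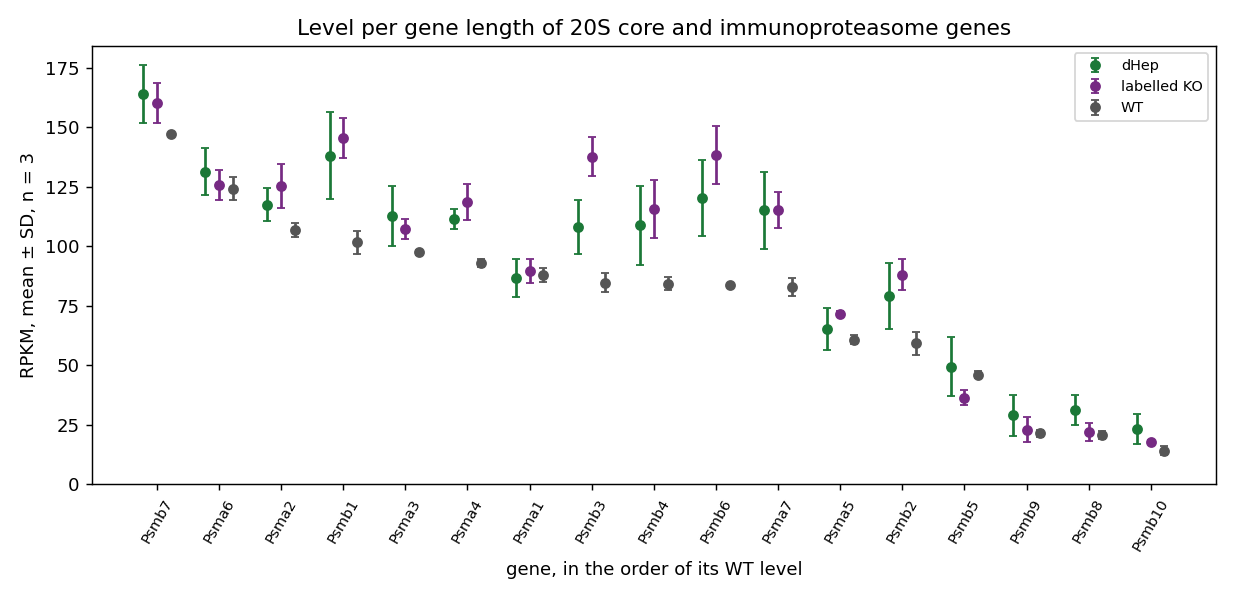
Level per gene length (RPKM, mean and SD of 3 libraries) of 14 constitutive 20S genes and 3 immunoproteasome genes, in the order of the WT level, for dHep (green), libraries labelled KO (purple) and WT (grey). Psmb5 is the lowest constitutive gene, and the group means of Psmb8, Psmb9 and Psmb10 lie between 14.1 and 31.3 RPKM.

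The 250 bases before the start of 4 beta-subunit genes are shown because these genes stand for different outcomes in the libraries labelled KO: Psmb3 and Psmb6 rose, Psmb5 was not called, and Psmb9 is inducible by interferon. The sequences are those of RefSeq on GRCm38.p6, written 5′ to 3′ on the strand of the gene, with matches to 3 motifs in capitals.
Psmb3 promoter (chr11:97703184-97703433, plus strand): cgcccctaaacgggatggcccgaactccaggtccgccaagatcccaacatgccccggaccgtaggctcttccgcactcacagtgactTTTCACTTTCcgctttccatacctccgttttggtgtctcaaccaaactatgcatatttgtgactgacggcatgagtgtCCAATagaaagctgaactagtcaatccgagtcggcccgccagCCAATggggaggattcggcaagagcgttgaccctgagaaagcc
Psmb6 promoter (chr11:70525107-70525356, plus strand): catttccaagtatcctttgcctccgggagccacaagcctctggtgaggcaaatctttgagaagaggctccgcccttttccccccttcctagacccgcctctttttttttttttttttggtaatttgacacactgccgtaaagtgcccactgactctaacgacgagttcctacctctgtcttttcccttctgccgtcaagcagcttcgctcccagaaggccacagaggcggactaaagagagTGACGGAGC
Psmb5 promoter (chr14:54617996-54618245, minus strand): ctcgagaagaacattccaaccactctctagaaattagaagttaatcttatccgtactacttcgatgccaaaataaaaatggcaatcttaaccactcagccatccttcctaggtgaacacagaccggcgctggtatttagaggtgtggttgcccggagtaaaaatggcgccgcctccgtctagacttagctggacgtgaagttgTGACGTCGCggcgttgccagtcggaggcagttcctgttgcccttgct
Psmb9 promoter (chr17:34187331-34187580, minus strand): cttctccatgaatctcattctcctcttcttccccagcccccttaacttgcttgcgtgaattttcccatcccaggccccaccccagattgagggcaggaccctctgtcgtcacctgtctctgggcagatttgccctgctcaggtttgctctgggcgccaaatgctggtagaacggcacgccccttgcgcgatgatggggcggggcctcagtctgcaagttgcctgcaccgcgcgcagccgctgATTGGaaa
The motifs searched on both strands were the core of the antioxidant response element TGACNNNGC, which NRF1 and NRF2 bind, the CCAAT box (CCAAT) and a pair of interferon regulatory factor half-sites of the interferon-stimulated response element type. The capitals in Psmb6 and Psmb5 mark a TGACNNNGC match whose first base lies 9 and 47 bases before the start. Those in Psmb3 mark CCAAT at 85 and 43 bases before the start and a half-site pair on the other strand at 163 bases, and those in Psmb9 a CCAAT on the other strand at 8 bases. In windows of 250 bases before to 50 after the start, TGACNNNGC was found for 6 of the 41 members with a promoter (14.6%) against 13.99% of 27025 genes, CCAAT for 15 (36.6%) against 41.1%, and the half-site pair for 5 (12.2%) against 3.99%. The genes with TGACNNNGC were Psmb5, Psmb6, Psmc6, Psmd9, Psmd12 and Psme4. Those with the half-site pair were Psmb3, Psmd4, Psmd9, Psme1 and Psmg4, and 0 of the 3 immunoproteasome genes had it. In Psme1 and Psmg4 the pair lay after the start. A match describes these letters only.

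In the 20S core, 6 of 14 genes rose in dHep and 7 of 14 in the libraries labelled KO, with median log2 fold changes of 0.24 and 0.29. Of the 7 alpha-ring genes, which form the outer rings and the gate, Psma4 and Psma7 rose in each comparison with WT. Psma7 had 112, 85.3 and 107 CPM in the dHep libraries, 94.3, 108 and 103 CPM in the libraries labelled KO and 69.3, 74.2 and 75.6 CPM in the WT libraries. After TMM, every dHep library and every library labelled KO was above every WT library. Over library totals, dHep replicate 2 (2125 of 26713161 reads) was below WT replicate 3 (2120 of 25570388). The log2 fold changes were 0.47 ± 0.11 in dHep (SE; adjusted p = 0.0157) and 0.48 ± 0.11 in the libraries labelled KO (adjusted p = 0.00861). The dHep call of Psma7 was lost without any 1 of the WT libraries (adjusted p 0.0569 to 0.0659), and both calls were lost with library totals as the scaling (adjusted p 0.144 in dHep and 0.137 for labelled KO). Psma4 rose by 0.26 ± 0.08 in dHep (adjusted p = 0.0443) and 0.35 ± 0.08 in the libraries labelled KO (adjusted p = 0.00795). The call in dHep held in 4 of 19 other settings. The other 5 alpha genes had log2 fold changes between -0.02 and 0.24 in the comparisons with WT. Psma8, the alpha subunit of testis, had 0.196 to 3.01 CPM in all libraries and was not called, and Psmb11, the catalytic subunit of thymic epithelium, had 0 reads in all 9 libraries and was not tested.

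All 4 structural beta genes, which line the beta ring without a protease site, rose in the libraries labelled KO, and 3 of them rose in dHep. Psmb3 had 79.3, 70.5 and 87.1 CPM in the dHep libraries, 93.7, 104 and 104 CPM in the libraries labelled KO and 61.5, 65.1 and 59.2 CPM in the WT libraries. After TMM, no library of either group overlapped with WT, and the libraries labelled KO were also above the dHep libraries. Over library totals, dHep replicate 2 (1755 of 26713161 reads) was below WT replicate 2 (1756 of 25213844). The log2 fold change of Psmb3 was 0.70 ± 0.10 in the libraries labelled KO (adjusted p = 0.000853) and 0.35 ± 0.10 in dHep (adjusted p = 0.031; 0.0124 to 0.262 over other settings, past 0.05 in 9 of 19). Between the libraries labelled KO and dHep it was 0.35 ± 0.10 (adjusted p = 0.0551) and was not called. Psmb1 had 141, 125 and 163 CPM in the dHep libraries, 141, 157 and 155 CPM in the libraries labelled KO and 100.1, 106 and 110.0 CPM in the WT libraries. Its 3 WT libraries were the lowest of the 9 after TMM. Over library totals, dHep replicate 2 (3116 of 26713161 reads) was below WT replicate 3 (3085 of 25570388). The changes were 0.52 ± 0.11 in the libraries labelled KO (adjusted p = 0.00513) and 0.44 ± 0.11 in dHep (adjusted p = 0.0183). The dHep call of Psmb1 was lost without any 1 of the WT libraries (adjusted p 0.0602 to 0.0775). Psmb2 rose by 0.58 ± 0.14 in the libraries labelled KO (adjusted p = 0.00817) and by 0.42 ± 0.13 in dHep (adjusted p = 0.0491, past 0.05 in 3 of 19 other settings). Psmb4 rose by 0.46 ± 0.12 in the libraries labelled KO (adjusted p = 0.0144) and stood at 0.37 ± 0.12 in dHep (adjusted p = 0.0537).

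Of the 3 constitutive catalytic genes, Psmb6 was called in each comparison with WT, and Psmb5 and Psmb7 in neither. Psmb6, which encodes the caspase-like subunit, had 119, 112 and 143 CPM in the dHep libraries, 129, 154 and 146 CPM in the libraries labelled KO and 86.5, 86.6 and 86.9 CPM in the WT libraries. The 3 WT libraries had an SD of 0.206 CPM and lay below all others. Psmb6 rose 1.65-fold in the libraries labelled KO (log2 0.73 ± 0.11, adjusted p = 0.00115) and 1.44-fold in dHep (log2 0.52 ± 0.11, adjusted p = 0.00973), and passed 0.05 in all 19 other settings in both. Psmb7 had 153, 151 and 172 CPM in the dHep libraries, 149, 152 and 165 CPM in the libraries labelled KO and 143, 142 and 143 CPM in the WT libraries. Its dHep libraries and those labelled KO were also all above WT after TMM, but by less, at 0.16 ± 0.09 in dHep (adjusted p = 0.219) and 0.12 ± 0.09 in the libraries labelled KO (adjusted p = 0.275), and it was not called. Over library totals that order was lost. Psmb7 had 3178 of 22275299 reads in labelled KO replicate 1, 3763 of 26713161 in dHep replicate 2 and 3795 of 24493607 in WT replicate 1. Psmb5 had 39.4, 34.6 and 55.1 CPM in the dHep libraries, 28.8, 34.3 and 32 CPM in the libraries labelled KO and 38.8, 40.0 and 41.6 CPM in the WT libraries. The libraries labelled KO were below all WT libraries, while dHep replicate 3 was the highest of the 9 and the other dHep libraries were within or below the WT range. The log2 fold change of Psmb5 was -0.34 ± 0.16 in the libraries labelled KO (adjusted p = 0.115), 0.10 ± 0.16 in dHep (adjusted p = 0.681) and -0.44 ± 0.16 between the libraries labelled KO and dHep (adjusted p = 0.113), none of them called. With library totals as the scaling it was called lower in the libraries labelled KO against WT (log2 -0.52, adjusted p = 0.0221).

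**Figure D3:**
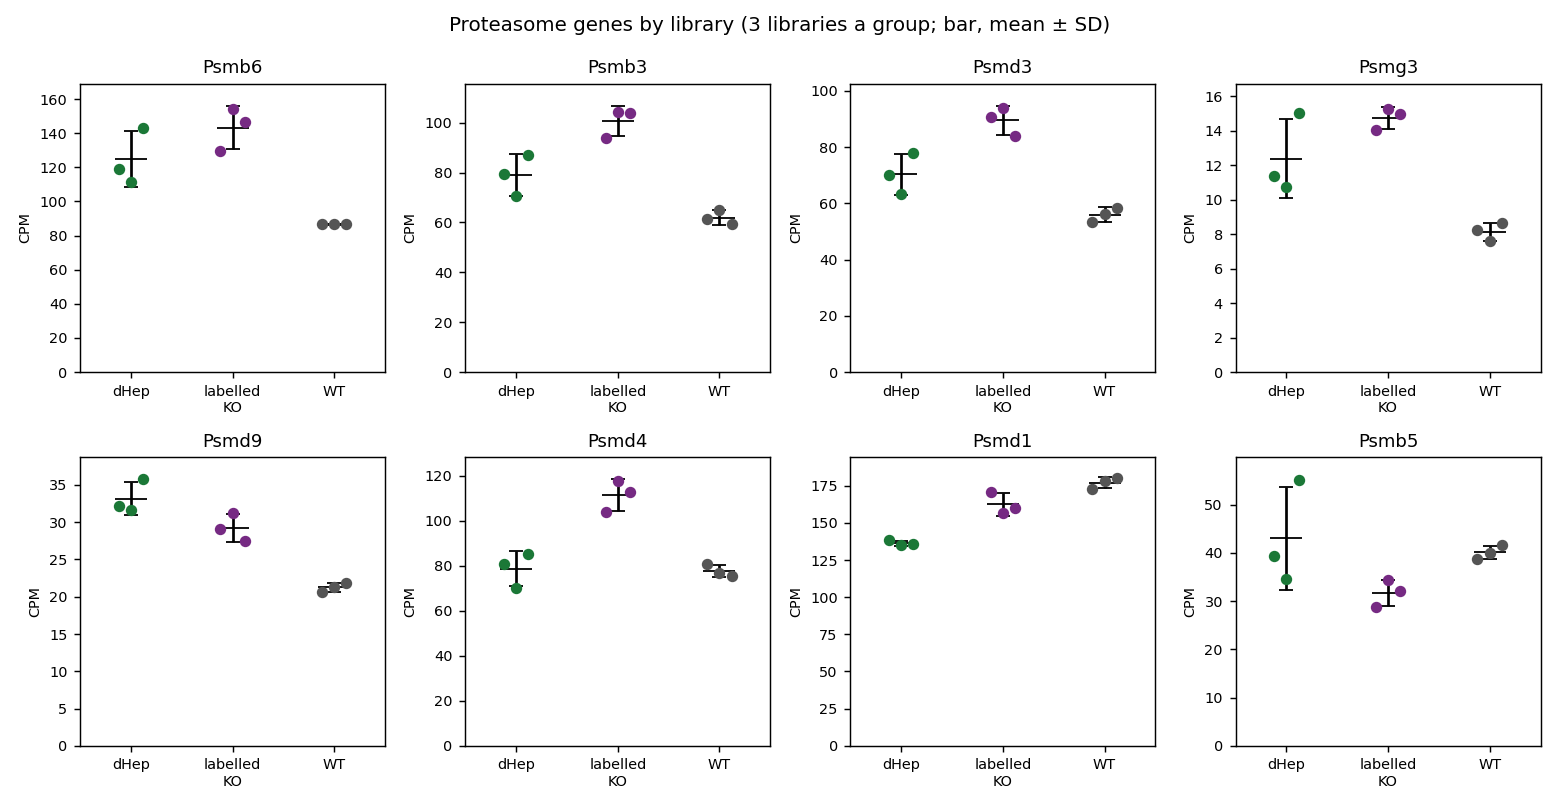
CPM in each library (points) with the mean and SD of 3 libraries, for 8 proteasome genes, with dHep left, libraries labelled KO in the middle and WT right. After TMM, Psmb6, Psmb3, Psmd3, Psmg3 and Psmd9 are above WT in every library of dHep and of labelled KO. Over library totals, Psmb3 and Psmd3 in dHep replicate 2 are not above every WT library. Psmd4 is above WT in the libraries labelled KO, Psmd1 is below WT in dHep, and Psmb5 is below WT in the libraries labelled KO.

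Chaperones that assemble the 20S core also rose. Psmg1 and Psmg2 form a pair that scaffolds the alpha ring, as do Psmg3 and Psmg4, and all 4 genes rose in the libraries labelled KO, while Psmg1 and Psmg3 rose in dHep. Psmg3 had 11.4, 10.8 and 15 CPM in the dHep libraries, 14, 15.3 and 14.9 CPM in the libraries labelled KO and 8.23, 7.6 and 8.63 CPM in the WT libraries. Every WT library was below every other library, and Psmg3 rose by 0.86 ± 0.14 in the libraries labelled KO (adjusted p = 0.0016) and 0.60 ± 0.14 in dHep (adjusted p = 0.0149; 0.0522 without WT replicate 3 and 0.0733 without WT replicate 2). Psmg4, at 1.30 to 3.44 CPM the least abundant of them, rose by 0.92 ± 0.23 in the libraries labelled KO (adjusted p = 0.0107) and stood at 0.67 ± 0.23 in dHep (adjusted p = 0.0593). Psmg1 rose by 0.57 ± 0.13 in the libraries labelled KO (adjusted p = 0.00639) and 0.42 ± 0.13 in dHep (adjusted p = 0.0389, past 0.05 in 7 of 19 other settings), and Psmg2 rose by 0.48 ± 0.14 in the libraries labelled KO (adjusted p = 0.0196). The summed level of the 4 genes was 45.6 ± 6.61 CPM in dHep, 54.4 ± 4.36 CPM in the libraries labelled KO and 35.2 ± 1.11 CPM in WT (SD, n = 3 each).

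**Figure D4:**
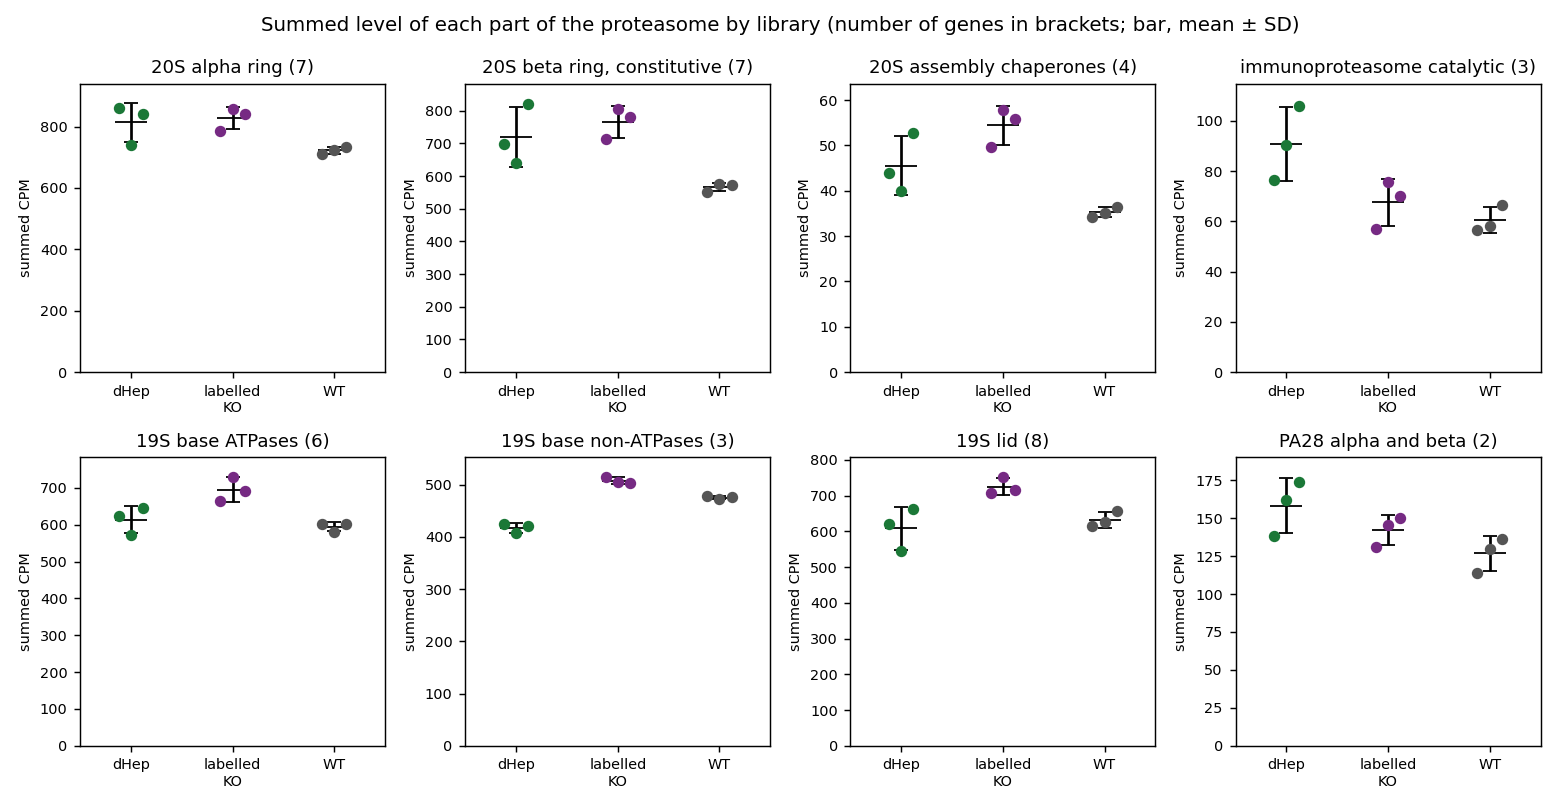
Summed CPM of the genes of each part of the proteasome in each library (points) with the mean and SD of 3 libraries, with dHep left, libraries labelled KO in the middle and WT right. After TMM, both 20S rings lie above WT in every dHep library and in every library labelled KO. The 19S parts then lie above WT in every library labelled KO. As a share of all assigned reads, these orders change. The alpha ring overlaps, with 0.0690 to 0.0940% in dHep, 0.0752 to 0.0837% in labelled KO and 0.0772 to 0.0804% in WT. The beta ring is above WT in labelled KO but not in every dHep library. The base ATPases and lid of labelled KO overlap with WT, and the base non-ATPases are below it (0.0466 to 0.0494% against 0.0506 to 0.0523%).

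In the 19S particle, more genes rose in the libraries labelled KO than in dHep, and 4 were higher in the libraries labelled KO than in dHep. Over all genes tested, more also rose in the libraries labelled KO (20.9%, with 43.0% called either way) than in dHep (12.4%, with 24.3% called). The 19S shares that rose were 47.1% and 5.88% in the same order. Of its 17 genes, 8 rose and 0 fell in the libraries labelled KO (9 at an unadjusted p under 0.05 in edgeR; 8 and 0 in DESeq2, 10 and 1 in limma voom), and 1 rose and 1 fell in dHep. Among the 6 ATPases of the base, Psmc2, Psmc3, Psmc4 and Psmc5 rose in the libraries labelled KO, by 0.36 to 0.40 on the log2 scale. In dHep, 0 of the 6 were called by edgeR, DESeq2 or limma voom, and 0 reached an unadjusted p of 0.05. Psmc4 in the libraries labelled KO had an adjusted p of 0.0397 (0.00115 to 0.278 over other settings, past 0.05 in 11 of 19). Psmc1 and Psmc6 had values of -0.03 and -0.12 in the libraries labelled KO and were not called. The summed level of the 6 was 614 ± 37.5 CPM in dHep, 695 ± 33.5 CPM in the libraries labelled KO and 595 ± 11.8 CPM in WT (SD, n = 3 each).

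Of the other base genes, Psmd4, the ubiquitin receptor Rpn10, rose in the libraries labelled KO. It had 80.7, 70.2 and 85.2 CPM in the dHep libraries, 104, 118 and 113 CPM in the libraries labelled KO and 80.8, 76.6 and 75.6 CPM in the WT libraries. The 3 libraries labelled KO were above all 6 others, and the dHep and WT libraries overlapped. Its log2 fold change was 0.52 ± 0.10 in the libraries labelled KO against WT (adjusted p = 0.00266) and 0.50 ± 0.10 against dHep (adjusted p = 0.0143). Psmd1, the scaffold subunit Rpn2, had 138, 135 and 136 CPM in the dHep libraries, 171, 157 and 159.7 CPM in the libraries labelled KO and 173, 178 and 179.9 CPM in the WT libraries. It was the 1 proteasome gene that fell in dHep, where every library was below all others, at -0.38 ± 0.08 (adjusted p = 0.00927; 0.0505 without WT replicate 3, and past 0.05 in 18 of 19 other settings). In the libraries labelled KO it stood at -0.12 ± 0.08 (adjusted p = 0.221), and it was called lower there with library totals as the scaling (-0.31, adjusted p = 0.0382).

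Of the 8 lid genes, Psmd3, Psmd6 and Psmd12 rose in the libraries labelled KO, and Psmd3 rose in dHep. Psmd3, the structural subunit Rpn3, had 69.9, 63.3 and 77.8 CPM in the dHep libraries, 90.5, 94 and 83.8 CPM in the libraries labelled KO and 53.2, 56.4 and 58.3 CPM in the WT libraries. The groups did not overlap with each other after TMM, with WT lowest and the libraries labelled KO highest. Over library totals, dHep replicate 2 (1577 of 26713161 reads) was below WT replicate 3 (1636 of 25570388). Psmd3 rose by 0.68 ± 0.10 in the libraries labelled KO (adjusted p = 0.000924) and by 0.33 ± 0.10 in dHep (adjusted p = 0.0371; 0.016 to 0.334 over other settings, past 0.05 in 5 of 19). Psmd12, the subunit Rpn5, rose by 0.35 ± 0.08 in the libraries labelled KO (adjusted p = 0.00656), and Psmd6, the subunit Rpn7, by 0.37 ± 0.11 (adjusted p = 0.0235, past 0.05 in 13 of 19 other settings). Psmd14, the deubiquitinase Rpn11, stood at -0.10 in dHep livers and 0.03 in the libraries labelled KO and was not called. Psmd8 stood at -0.32 in dHep (adjusted p = 0.0656) and -0.21 in the libraries labelled KO (adjusted p = 0.159), and with library totals as the scaling it was called lower in both (-0.49 with adjusted p = 0.0165, and -0.39 with adjusted p = 0.0239).

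The 4 genes that edgeR called between the libraries labelled KO and dHep (8.33% of 48 members, against 9.62% of all genes) were all of the 19S particle. Of them, 0 were called in all 19 other settings. DESeq2 called 10 members, 7 of them of the 19S particle. The others were a structural beta gene, an activator and an immunoproteasome gene. Besides Psmd4, the genes called by edgeR were the ATPase Psmc2 and the lid genes Psmd11 and Psmd12. Psmc2 had 115, 134 and 125 CPM in the libraries labelled KO and 96.7, 93.4 and 93.6 CPM in the dHep libraries. The groups did not overlap, and the difference was 0.40 ± 0.08 (adjusted p = 0.0185). Psmd11, the lid subunit Rpn6, had 115, 105 and 111 CPM in the libraries labelled KO and 88.8, 72.2 and 74.2 CPM in the dHep libraries. Its difference was 0.49 ± 0.10 (adjusted p = 0.0194), again without overlap, although its values against WT were not called (-0.27 in dHep livers and 0.23 in the libraries labelled KO). Psmd12 had 95.3, 99 and 99.5 CPM in the libraries labelled KO and 76.1, 76.5 and 84 CPM in the dHep libraries, a difference of 0.31 ± 0.08 (adjusted p = 0.0363; 0.00774 to 0.162 over other settings, past 0.05 in 5 of 19). Of the 14 constitutive 20S genes, 0 were called between the libraries labelled KO and dHep by edgeR (2 at an unadjusted p under 0.05) or limma voom, and DESeq2 called 1. Without dHep replicate 2, 2 of the 4 calls were lost (Psmd11 and Psmd12, adjusted p 0.0554 to 0.0872).

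Of the 3 chaperones of 19S assembly, Psmd9 (p27) rose in both. It had 32.1, 31.6 and 35.8 CPM in the dHep libraries, 29.1, 31.2 and 27.5 CPM in the libraries labelled KO and 20.6, 21.3 and 21.9 CPM in the WT libraries. WT libraries were the lowest and dHep libraries the highest, with no overlap between groups. Psmd9 rose 1.56-fold in dHep (log2 0.64 ± 0.10, adjusted p = 0.00291) and 1.38-fold in the libraries labelled KO (log2 0.46 ± 0.10, adjusted p = 0.00584). Psmd10 (gankyrin) stood at -0.11 in dHep livers and -0.16 in the libraries labelled KO, and Psmd5 (S5b) at -0.27 and -0.22, all not called. With library totals as the scaling, Psmd5 was called lower in dHep (-0.44, adjusted p = 0.0137) and in the libraries labelled KO (-0.41, adjusted p = 0.0107).

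Of the 3 immunoproteasome genes, Psmb8 and Psmb10 rose in dHep. Psmb8 (LMP7), which replaces Psmb5, and Psmb9 (LMP2), which replaces Psmb6, lie close together on chromosome 17 in the major histocompatibility region, and Psmb10 (MECL-1) replaces Psmb7. Psmb8 had 31.6, 36.6 and 46.6 CPM in the dHep libraries, 21.7, 30.5 and 27.9 CPM in the libraries labelled KO and 23, 25.9 and 27.2 CPM in the WT libraries. All dHep libraries were above all WT libraries, while the libraries labelled KO overlapped with WT, with log2 fold changes of 0.59 ± 0.17 in dHep (adjusted p = 0.0334) and 0.08 ± 0.17 in the libraries labelled KO (adjusted p = 0.745). Psmb10 had 21.6, 37.5 and 28.9 CPM in the dHep libraries, 21.2, 22.7 and 23.1 CPM in the libraries labelled KO and 16.7, 16.3 and 20.6 CPM in the WT libraries. Every dHep library and every library labelled KO was above the highest WT library, and the change was 0.71 ± 0.19 in dHep (adjusted p = 0.0234) and 0.32 ± 0.19 in the libraries labelled KO (adjusted p = 0.192). Psmb9 had 23.4, 16.2 and 30.3 CPM in the dHep libraries, 14.1, 22.4 and 19 CPM in the libraries labelled KO and 17.1, 15.9 and 18.5 CPM in the WT libraries. Its groups overlapped and it was not called, at 0.44 ± 0.23 in dHep (adjusted p = 0.191) and 0.11 ± 0.23 in the libraries labelled KO (adjusted p = 0.732). In the libraries labelled KO against dHep, Psmb8 stood at -0.52 ± 0.17 (adjusted p = 0.0865) with no overlap, Psmb9 at -0.33 ± 0.23 and Psmb10 at -0.39 ± 0.19, and 0 of the 3 were called by edgeR (1 at an unadjusted p under 0.05; 1 called by DESeq2 and 0 by limma voom). Against WT, 0 of the 3 were called in the libraries labelled KO by edgeR (0 at an unadjusted p under 0.05) or DESeq2, and 1 by limma voom. The dHep call of Psmb8 ended without dHep replicate 3, labelled KO replicate 3 or any 1 of the WT libraries (adjusted p 0.0527 to 0.111), and that of Psmb10 without WT replicate 1 or WT replicate 2 (0.0804 to 0.0925). Without both dHep replicate 2 and WT replicate 1 the adjusted p was 0.104 for Psmb8 and 0.107 for Psmb10.

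Several immune-cell markers fell in the same libraries, while 1 leukocyte marker, Cd4, rose in each comparison with WT. Among the leukocyte and lymphocyte markers, Ptprc was the 1 that fell in dHep. Of 11 leukocyte and lymphocyte markers tested, 1 rose and 1 fell in dHep and 1 rose and 4 fell in the libraries labelled KO, with a summed level of 17.9 to 26.9 CPM in dHep, 12.9 to 17.1 CPM in the libraries labelled KO and 34.2 to 37.3 CPM in WT. Ptprc (CD45), carried by all leukocytes, fell, with log2 fold changes of -1.24 ± 0.21 in dHep (adjusted p = 0.0038) and -2.36 ± 0.22 in the libraries labelled KO (adjusted p = 0.000187). Of 11 macrophage and dendritic cell markers, 7 fell and 0 rose in dHep (7 at an unadjusted p under 0.05 in edgeR; 7 and 0 in DESeq2, 6 and 0 in limma voom), and 7 fell and 0 rose in the libraries labelled KO (9 at an unadjusted p under 0.05; 8 and 0, 9 and 0). Their summed level was 121 to 199 CPM in dHep, 45.5 to 93.2 CPM in the libraries labelled KO and 148 to 215 CPM in WT. In neither list was any tested marker at 0 in all libraries. The part of these markers in the immunoproteasome values was not tested.

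Within a library, the ratio of each immune subunit to its constitutive partner needs no scaling between libraries. On reads per kilobase, the ratio of Psmb8 to Psmb5 was 0.571, 0.753 and 0.603 in the dHep libraries, 0.537, 0.633 and 0.621 in the libraries labelled KO and 0.421, 0.461 and 0.467 in the WT libraries. All libraries of dHep and all libraries labelled KO were above WT, by 0.51 and 0.41 in mean log2 ratio. The two-sided exact permutation p was 0.1 for both, the smallest that 3 against 3 libraries can give, and 0.225 after Benjamini-Hochberg adjustment over 9 such tests. The ratio of Psmb9 to Psmb6 was 0.252, 0.187 and 0.272 in the dHep libraries, 0.14, 0.187 and 0.167 in the libraries labelled KO and 0.254, 0.237 and 0.274 in the WT libraries. The libraries labelled KO were below both other groups, narrowly so between labelled KO replicate 2 and dHep replicate 2, with mean log2 differences of -0.64 against WT and -0.52 against dHep (exact permutation p = 0.1 for both, adjusted 0.225), whereas dHep overlapped with WT. For Psmb10 over Psmb7 the ratios were 0.108, 0.19 and 0.128 in the dHep libraries, 0.108, 0.113 and 0.107 in the libraries labelled KO and 0.0893, 0.0875 and 0.11 in the WT libraries. Their groups overlapped in all 3 comparisons, with differences of 0.53 in dHep (exact permutation p = 0.2) and 0.21 in the libraries labelled KO (exact permutation p = 0.3). The difference in dHep was 0.30 without dHep replicate 2 and 0.26 without both dHep replicate 2 and WT replicate 1, and that in the libraries labelled KO was 0.31 without WT replicate 3. The Psmb8 ratio carries the uncertainty in the Psmb5 level given above. After TMM, Psmb8 stood at log2 0.59 and Psmb5 at 0.10 in dHep against WT. In the libraries labelled KO against WT, Psmb8 stood at 0.08 and Psmb5 at -0.34, and Psmb9 at 0.11 and Psmb6 at 0.73. In those libraries the differences of Psmb8 over Psmb5 and Psmb9 over Psmb6 thus lay more in the constitutive gene.

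**Figure D5:**
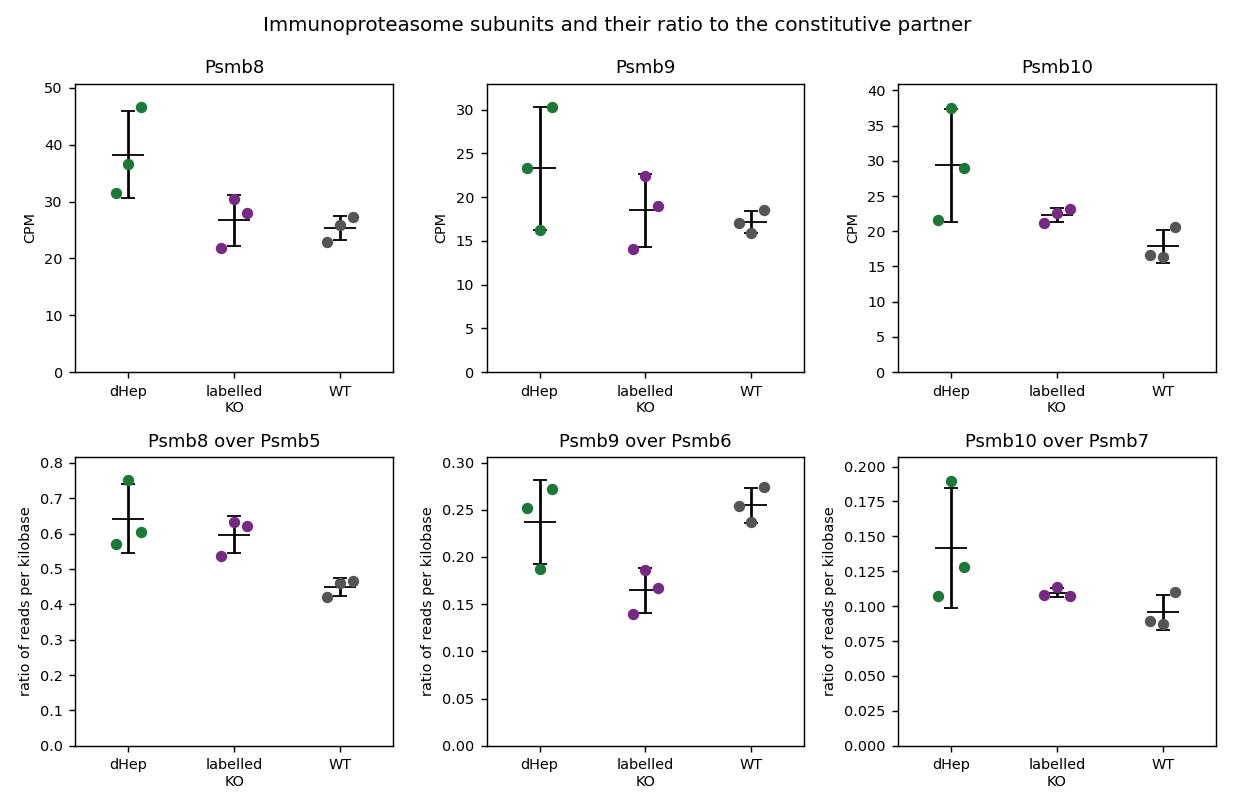
Upper row, CPM of Psmb8, Psmb9 and Psmb10 in each library; lower row, the ratio of each to the constitutive subunit it replaces, in reads per kilobase. Points are libraries and bars the mean and SD of 3, with dHep left, libraries labelled KO in the middle and WT right. Psmb8 is above WT in all dHep libraries, and the ratio of Psmb9 to Psmb6 is lowest in the libraries labelled KO. In those libraries Psmb6 rose against WT and Psmb9 was not called.

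Among the activators that cap the 20S core in place of the 19S particle, Psme2 rose in dHep. Psme1 and Psme2 encode the alpha and beta subunits of PA28, which interferon gamma induces. Psme2 had 84.6, 89.1 and 100.1 CPM in the dHep libraries, 69.8, 75.8 and 82 CPM in the libraries labelled KO and 66.5, 72.7 and 76.6 CPM in the WT libraries. The dHep libraries were above all others, with a change of 0.34 ± 0.10 (adjusted p = 0.0373; 0.0189 to 0.234 over other settings, past 0.05 in 8 of 19), against 0.08 ± 0.10 in the libraries labelled KO (adjusted p = 0.569). Psme1 had 53.7, 73 and 73.8 CPM in the dHep libraries, 61.2, 69.4 and 67.9 CPM in the libraries labelled KO and 47.7, 57.2 and 59.9 CPM in the WT libraries. Its dHep and WT libraries overlapped, and it was not called (0.28 in dHep livers and 0.27 in the libraries labelled KO). Psme3, the nuclear PA28 gamma, had 55.4, 59.9 and 63.3 CPM in the dHep libraries, 72.5, 70.1 and 70.6 CPM in the libraries labelled KO and 61.9, 62.1 and 62.2 CPM in the WT libraries. The libraries labelled KO were all above WT, at 0.20 ± 0.08, but the adjusted p was 0.0733. Psme4, which encodes PA200, had 166, 182 and 158 CPM in the dHep libraries, 200.3, 165 and 179 CPM in the libraries labelled KO and 195, 187 and 196 CPM in the WT libraries. Every dHep library of Psme4 was below every WT library, while the libraries labelled KO overlapped with WT. Psme4 was not called in either comparison with WT. Psmf1, the 20S regulator PI31, rose by 0.53 ± 0.15 in the libraries labelled KO (adjusted p = 0.017; 0.000307 to 0.0653 over other settings, past 0.05 in 14 of 19). Psmc3ip had 0.188 to 0.570 CPM and was not called.

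Genes that work with the proteasome under other names showed changes in both directions. The counts of this list and of the other gene lists stand beside 24.3% of all genes called in dHep against WT. That share was 43.0% for labelled KO against WT and 9.62% for labelled KO against dHep. Of 20 listed subunits and bound factors, 17 were tested, and 3 rose and 3 fell in dHep, 2 rose and 2 fell in the libraries labelled KO against WT, and 2 rose and 1 fell in the libraries labelled KO against dHep. Adrm1, the ubiquitin receptor Rpn13 of the base, had 39.4, 32.2 and 37.4 CPM in the dHep libraries, 50.5, 59.5 and 52.9 CPM in the libraries labelled KO and 28.1, 23.9 and 27.8 CPM in the WT libraries. The groups did not overlap, with WT lowest and the libraries labelled KO highest. Adrm1 rose 2.04-fold in the libraries labelled KO against WT (log2 1.03 ± 0.12, adjusted p = 0.000376), by 0.45 ± 0.12 in dHep (adjusted p = 0.0226) and by 0.58 ± 0.12 in the libraries labelled KO against dHep (adjusted p = 0.0175). Shfm1, the small lid subunit also called Sem1, rose by 0.79 ± 0.15 in the libraries labelled KO (adjusted p = 0.00266) and 0.70 ± 0.14 in dHep (adjusted p = 0.00911). Ube3c, a ubiquitin ligase bound to the 26S proteasome, fell in both (-0.38 in dHep with adjusted p = 0.0459, and -0.46 in the libraries labelled KO with adjusted p = 0.014), as did Zfand2a, an arsenite-induced factor (-0.70 with adjusted p = 0.0132, and -0.54 with adjusted p = 0.0224). Pomp, the maturation protein of the 20S core, was singled out after its values were seen: it was not called, at 0.24 in dHep livers and 0.24 in the libraries labelled KO.

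Of 9 genes of NRF1 and NRF2 control, 1 rose and 2 fell in dHep, and 1 rose and 2 fell in the libraries labelled KO. Nfe2l1 had 119, 159.8 and 140.4 CPM in the dHep libraries, 137, 114 and 127 CPM in the libraries labelled KO and 158, 168 and 169.8 CPM in the WT libraries. It fell in the libraries labelled KO, with a log2 change of -0.40 ± 0.12 (adjusted p = 0.0255, past 0.05 in 14 of 19 other settings), and was not called in dHep (-0.24 ± 0.12, adjusted p = 0.167). Nfe2l2, which encodes NRF2, fell in dHep (-0.76 ± 0.17, adjusted p = 0.0121) and stood at -0.44 ± 0.17 in the libraries labelled KO (adjusted p = 0.0615). Maff, a small partner protein of both factors, fell in dHep (-0.88 ± 0.23, adjusted p = 0.0244) and in the libraries labelled KO (-2.18 ± 0.25, adjusted p = 0.000379). Of 12 NRF2 target genes, 1 rose and 7 fell in dHep, and 1 rose and 8 fell in the libraries labelled KO, with medians of -0.89 and -1.04. Nqo1, an NRF2 target that encodes a quinone reductase, had 7.79, 6.47 and 3.97 CPM in the dHep libraries, 6.34, 5.7 and 6.64 CPM in the libraries labelled KO and 19.1, 20.9 and 25.2 CPM in the WT libraries. Its 3 WT libraries were the highest of the 9, with changes of -1.83 ± 0.22 in dHep (adjusted p = 0.000969) and -1.80 ± 0.22 in the libraries labelled KO (adjusted p = 0.000499).

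Of 6 ubiquitin genes and activating enzymes, 2 rose and 1 fell in dHep, and 2 rose and 1 fell in the libraries labelled KO. Rps27a, which encodes ubiquitin fused to a ribosomal protein, rose by 0.60 ± 0.09 in dHep (adjusted p = 0.00261) and 0.53 ± 0.09 in the libraries labelled KO (adjusted p = 0.00203). Uba6, an activating enzyme, fell in both (-0.61 with adjusted p = 0.0232 in dHep, and -0.72 with adjusted p = 0.00661 in the libraries labelled KO). Of 28 ubiquitin-conjugating enzymes tested, 0 rose and 1 fell in dHep by edgeR (6 at an unadjusted p under 0.05; 0 and 1 by DESeq2 and by limma voom), and 4 rose and 2 fell in the libraries labelled KO. Ube2g2, which serves degradation of proteins from the endoplasmic reticulum, was among those 4, at 0.63 ± 0.12 (adjusted p = 0.00283). For labelled KO against WT, 6 of the 28 were called, where 43.0% of all genes tested were called.

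For the unfoldase VCP and its adaptors, which hand substrates to the proteasome, 1 of 14 rose and 3 fell in dHep, and 5 rose and 0 fell in the libraries labelled KO against WT (6 at an unadjusted p under 0.05 in edgeR; 6 and 0 in DESeq2, 6 and 1 in limma voom). Syvn1, the ubiquitin ligase of the endoplasmic reticulum (HRD1), had 45.2, 33.9 and 46.3 CPM in the dHep libraries, 73.2, 116 and 95.8 CPM in the libraries labelled KO and 40.5, 36.7 and 35.7 CPM in the WT libraries. The libraries labelled KO stood above all others, and the change was 1.34 ± 0.18 against WT (adjusted p = 0.000641) and 1.18 ± 0.18 against dHep (adjusted p = 0.00546), while dHep stood at 0.15 ± 0.17 against WT (adjusted p = 0.555). Vcp itself fell in dHep (-0.42 ± 0.11, adjusted p = 0.0241, past 0.05 in 14 of 19 other settings). Of 11 cytosolic heat-shock genes, 1 rose and 3 fell in dHep and 2 rose and 1 fell in the libraries labelled KO. Hsp90aa1, the inducible HSP90, fell in dHep (-1.01 ± 0.20, adjusted p = 0.0072).

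The peptides that the immunoproteasome makes are loaded on class I molecules. Of 11 genes of peptide loading and class I presentation, 0 were called in dHep by edgeR (0 at an unadjusted p under 0.05), DESeq2 or limma voom, with a median log2 fold change of -0.04. In the libraries labelled KO, Calr and Tap2 rose and Nlrc5, the transactivator of class I genes, fell (-1.20 ± 0.28, adjusted p = 0.00817). Of 10 genes that carry the interferon signal, 0 rose and 2 fell in dHep (4 at an unadjusted p under 0.05 in edgeR; 0 and 2 in DESeq2, 0 and 1 in limma voom), and 2 rose and 5 fell in the libraries labelled KO. The interferon gamma receptor chain Ifngr2 fell in both (-0.66 in dHep with adjusted p = 0.0082, and -0.60 in the libraries labelled KO with adjusted p = 0.00611).

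Replicates of a group differed in the level of the whole set. Over the 44 tested genes without the immunoproteasome and Psmc3ip, the median coefficient of variation was 11.6% in dHep, 5.93% in the libraries labelled KO and 3.35% in WT, against 15.7, 8.38 and 5.28% over 7591 genes of at least 10 CPM. Among dHep libraries, replicate 3 was the highest for 30 of the 44 genes and replicate 2, the library with the highest acinar and muscle marker levels of the 9, the lowest for 35. Among the libraries labelled KO, replicate 2 was the highest for 28 and replicate 1 the lowest for 31. These counts are on the TMM scale, and the same counts over all genes were not made. As a share of all assigned reads, the 45 genes were highest in dHep replicate 1 (0.409%, against 0.322% in replicate 2 and 0.351% in replicate 3). The summed level of all 45 genes was 3459 to 3973 CPM in dHep, 3963 to 4211 CPM in the libraries labelled KO and 3465 to 3588 CPM in WT. On this TMM scale the groups of libraries labelled KO and WT did not overlap, while dHep spanned parts of both. As a share of all assigned reads, the libraries labelled KO (0.379 to 0.412%) and WT (0.375 to 0.394%) overlapped.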

How the data were processed

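Whole-liver RNA was sequenced from 3 dHep, 3 labelled KO and 3 WT mice with a stranded mRNA kit, per the labels' protocols. FastQC, HISAT2 2.1.0, the mm10 build and DESeq2 are named in the submitters' processing notes, and featureCounts 1.6.2 with strand setting 2 made the deposited table, per the file headers. The table holds raw counts per gene, which the authors deposited without normalization, and each gene's counted length in bases. All 9 value columns matched a sample and 0 were left unused. The 3 groups were fitted together in edgeR 4.0.16 (R 4.3.3) with TMM factors, filterByExpr (minimum count 10, minimum total 15) and the quasi-likelihood test, and p was adjusted by Benjamini-Hochberg over 13141 genes, with calls at 0.05. The test was tried on simulated data. Alternatives were DESeq2 1.42.0, limma 3.58.1 (voom with sample weights), other scalings and filters, fits of 2 groups, a replicate block and leaving out libraries. The members and all gene lists were chosen with earlier results of these data known. Values in every library are given for the immunoproteasome genes, Psmb5 to Psmb7, Psme1 to Psme4 and the called members with the smallest p (up to 6 per direction and comparison); of other lists, up to 3 called genes per direction are named. Some genes of these lists are not reported here. P-values of the main fit rest on the spread between 3 libraries a group, estimated over all 9 libraries together, part of which may be technical. That estimate is shared by groups of unlike spread. The median coefficient of variation of 44 members was 11.6% in dHep, 5.93% in the libraries labelled KO and 3.35% in WT. Pair ratios were compared by exact permutation tests over libraries. Promoters came from RefSeq (GRCm38.p6).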

Additional observations from a re-analysis of the deposited data

How the results depend on the processing

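The count of members called in dHep against WT was 14, and it was 7 with limma voom, 9 with no low-count filter, 8 with only those groups fitted, 5 with library totals, 8 without both WT replicate 1 and dHep replicate 2, and 3 to 17 with 1 library left out. For the libraries labelled KO against WT it was 21, and 32 with limma voom, 10 with library totals and 16 to 25 with 1 library left out. For the libraries labelled KO against dHep it was 4, and 10 with DESeq2, 2 with limma voom, 1 with library totals, 0 to 15 with 1 library left out, 0 with only those groups fitted (9 at an unadjusted p under 0.05 in edgeR) and 0 without both WT replicate 1 and dHep replicate 2 (12 at an unadjusted p under 0.05 in edgeR). The causes were not tested. With the replicate number as a block the counts were 9, 20 and 3. Same-numbered libraries had correlations of -0.27 to 0.03 between their deviations over 9 pairs, and 0 libraries correlated best with their own number, so the numbers do not pair the samples. No called gene changed direction in these alternatives. The 9 comparisons of subunit ratios moved by less than the spread between libraries, but without dHep replicate 2 some moved by over 1.5 times: Psmb10 over Psmb7 to 0.30 in dHep against WT and -0.10 for labelled KO against dHep, and the small differences of Psmb9 over Psmb6 in dHep against WT and of Psmb8 over Psmb5 for labelled KO against dHep changed sign, to 0.04 and 0.02. Genes under 1 CPM, such as Psmc3ip, are limited by depth.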
